A study of Mus musculus with 6 samples.

Results

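The genes of the proteasome were examined in activated mouse CD4 T cells with and without the miR-17-92 microRNA cluster. All genes whose single symbol in the array annotation begins with Psm, a letter from a to g and a digit were taken, each read from its brightest probe set. This gave 48 of the 12393 genes on the arrays, covered by 85 probe sets. They included 46 of 48 genes listed by role as core subunits, regulatory particle subunits, activators, an inhibitor and assembly chaperones. Psmb11, the thymus-specific catalytic subunit, was not analysed here. The only set for Psme2 also names a related gene, so 4 of the 5 interferon-inducible genes (Psmb8, Psmb9, Psmb10 and Psme1) were measured. The pattern also took in Psmc3ip, a recombination factor, and Psme3ip1, which binds an activator, and neither is a proteasome subunit.

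The 6 arrays formed 3 groups of 2 biological replicates, all from CD4+CD25- T cells activated on plate-bound antibodies to CD3 and CD28, infected with a retrovirus and collected on day 5. WT-mock cells came from wild-type B6 mice and carried the empty vector. KO-mock cells were miR-17-92f/f CD4-cre+ on the B6 background, with floxed alleles of the cluster and a Cre driven by the CD4 promoter, and carried the empty vector. KO-miR-17 cells had the same genotype and carried a vector for miR-17. The labels name no Cre for the wild-type mice, so loss of the cluster and presence of Cre cannot be told apart here. The design sought transcripts higher when the cluster is lost and lower when miR-17 is returned. Cluster transcripts were not analysed here, so the arrays gave no check of the deletion or of the vector. The labels do not say whether the replicates came from separate animals, so p-values measure the spread between these arrays.

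The proteasome is a barrel with gates at its ends that degrades proteins tagged with ubiquitin. Its core has outer rings of alpha subunits (Psma genes) and inner rings of beta subunits (Psmb genes), 3 of which cut proteins. A regulatory particle of ATPases (Psmc) and non-ATPase subunits (Psmd) binds ubiquitin, unfolds the protein and feeds it in. In cells exposed to interferon gamma, and constitutively in many lymphocytes, Psmb8, Psmb9 and Psmb10 replace the catalytic subunits Psmb5, Psmb6 and Psmb7 in newly built cores. The resulting immunoproteasome, with the PA28 activator made from Psme1 and Psme2, shapes the peptides shown on class I molecules.

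Sequences of the returned microRNA and of 4 promoters are given because the results turn on how the constitutive and the immune catalytic genes compare. The mature microRNA, with its seed (bases 2 to 8) in capitals, lies in GRCm38.p6 at chr14:115043684-115043706 on the plus strand.
mmu-miR-17-5p: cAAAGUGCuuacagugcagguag
The windows below are from RefSeq (GRCm38.p6) and end at the base before the transcription start. That of Psmb5 (chr14:54617996-54618245, minus strand) and that of Psmb6 (chr11:70525107-70525356, plus strand) hold the letters TGACNNNGC in capitals, the core of the antioxidant response element. That of Psmb8 (chr17:34197945-34198194, plus strand) holds TTCNNNGAA in capitals, the gamma-activated sequence. That of Psmb9 (chr17:34187331-34187555, minus strand) holds CCAAT in capitals, on its reverse strand, and stops before the start of Tap1, which is read the other way.
Psmb5: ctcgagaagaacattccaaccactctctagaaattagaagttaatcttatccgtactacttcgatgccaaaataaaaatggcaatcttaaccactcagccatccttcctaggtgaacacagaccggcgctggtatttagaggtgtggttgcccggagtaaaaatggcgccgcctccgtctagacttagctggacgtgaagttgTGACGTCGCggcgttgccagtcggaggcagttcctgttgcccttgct
Psmb6: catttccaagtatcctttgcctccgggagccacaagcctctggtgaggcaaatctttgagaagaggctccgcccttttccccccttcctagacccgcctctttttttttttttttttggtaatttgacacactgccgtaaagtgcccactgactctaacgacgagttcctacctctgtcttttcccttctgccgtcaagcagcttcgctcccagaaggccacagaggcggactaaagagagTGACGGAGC
Psmb8: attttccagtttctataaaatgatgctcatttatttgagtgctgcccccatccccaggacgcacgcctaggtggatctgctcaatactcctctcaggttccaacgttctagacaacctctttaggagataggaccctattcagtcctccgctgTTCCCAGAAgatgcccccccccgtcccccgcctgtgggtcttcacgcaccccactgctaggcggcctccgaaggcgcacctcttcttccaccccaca
Psmb9: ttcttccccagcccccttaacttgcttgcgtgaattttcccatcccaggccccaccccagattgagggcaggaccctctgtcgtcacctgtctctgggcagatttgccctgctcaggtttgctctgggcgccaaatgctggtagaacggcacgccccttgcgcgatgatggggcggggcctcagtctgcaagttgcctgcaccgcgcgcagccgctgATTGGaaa

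Each letter pattern was sought on both strands of the 250 bases before the start. Of the 48 proteasome genes, 40 had a window. The TGACNNNGC letters were in 5 of the 40 (12.5%), against 11.5% of all genes with a window. The 5 were Psmb5, Psmb6, Psmc6, Psmd12 and Psmd9. CCAAT was in 15 of 40 (37.5%), against 37.5% of all genes. TTCNNNGAA was in 2 of 40 (5%), against 8.13%. It was in 1 of the 4 windows of the interferon-inducible genes, that of Psmb8, and the other match was in Psmg1. The interferon-stimulated response element (GAAA, 2 bases of any kind, GAAA) was in 3 of 40 (7.5%), against 3.46%, and in none of the 4 windows of the interferon-inducible genes. The shares of the first 3 patterns lay near or below those of all genes, and that of the last rests on 3 genes. A match is a stretch of letters and not a measured binding site.

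Levels are log2 intensities per probe set. Averaged over the 6 arrays, 46 of the 48 genes read between 6.87 and 11.35. Psma8, the alpha subunit of the testis-type core, read 3.33, below the lower quartile of each array (3.99 to 4.17), and Psmc3ip read 6.67. In the sorted cells, 8 measured CD4 T cell genes had mean levels of 9.08 to 12.04. The 23 measured markers of other blood cell types read 3.30 to 5.88, the highest being Cd8b1.

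Proteasome genes as a group read higher in both groups of deficient cells than in wild-type cells, by a median of 1.23-fold in each. The median level over the 48 genes was 9.44 and 9.56 on the WT-mock arrays, 9.72 and 9.83 on the KO-mock arrays, and 9.75 and 9.83 on the KO-miR-17 arrays. The 2 wild-type arrays were thus the lowest. Over the 4 interferon-inducible genes the median level was 11.05 and 11.15 in WT-mock, 11.31 and 11.43 in KO-mock, and 11.12 and 11.24 in KO-miR-17. This median in KO-miR-17 overlapped WT-mock and lay below KO-mock, which did not hold for Psmb8 alone.

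In KO-mock against WT-mock cells, 6 of the 48 genes were called higher (limma, adjusted p under 0.05 over all genes) and none lower, while 42 had no call. Over all genes 6.54% were called in either direction, 3.74% higher and 2.79% lower. The proteasome's called share, 12.5%, lay above that background, but these are bright probe sets, and bright genes were called more often. In a fit of the 3107 genes with a mean of at least 8, a limit set after seeing the data, 10 of 41 proteasome genes were called (24.4%), against 22.9% of all such genes. In the higher direction alone, where all 10 lie, 14.8% of bright genes were called, so the members' share was near the background only with both directions pooled. The bright genes were not matched to the members in level. A mean of 8.01 (Psmg3) lay at percentile 75.1 of all genes, and the brightest member, Psmb8, at 98.7. The difference was above 0 for 45 of 48 (45% of all genes), and for 39 of 41 bright ones (60.6% of all bright genes). The median difference was 0.30 over the proteasome genes, -0.026 over all genes and 0.082 over all bright genes.

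The groups did not overlap, with KO-mock higher, for 44 of the 48 genes, against 25.1% of all genes. At an unadjusted p under 0.05 there were 30 of 48, against 21.6%. KO-mock was lower without overlap for 1 gene, Psme4 (24.8% of all genes). Psme4 encodes PA200, an activator that binds the core ends without ATP. Its levels were 8.44 and 8.70 in WT-mock, 8.29 and 8.42 in KO-mock, and 8.47 and 8.54 in KO-miR-17. The difference of KO-mock from WT-mock, -0.21 ± 0.12 (SE), had no call (adjusted p = 0.369).

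**Figure D1:**
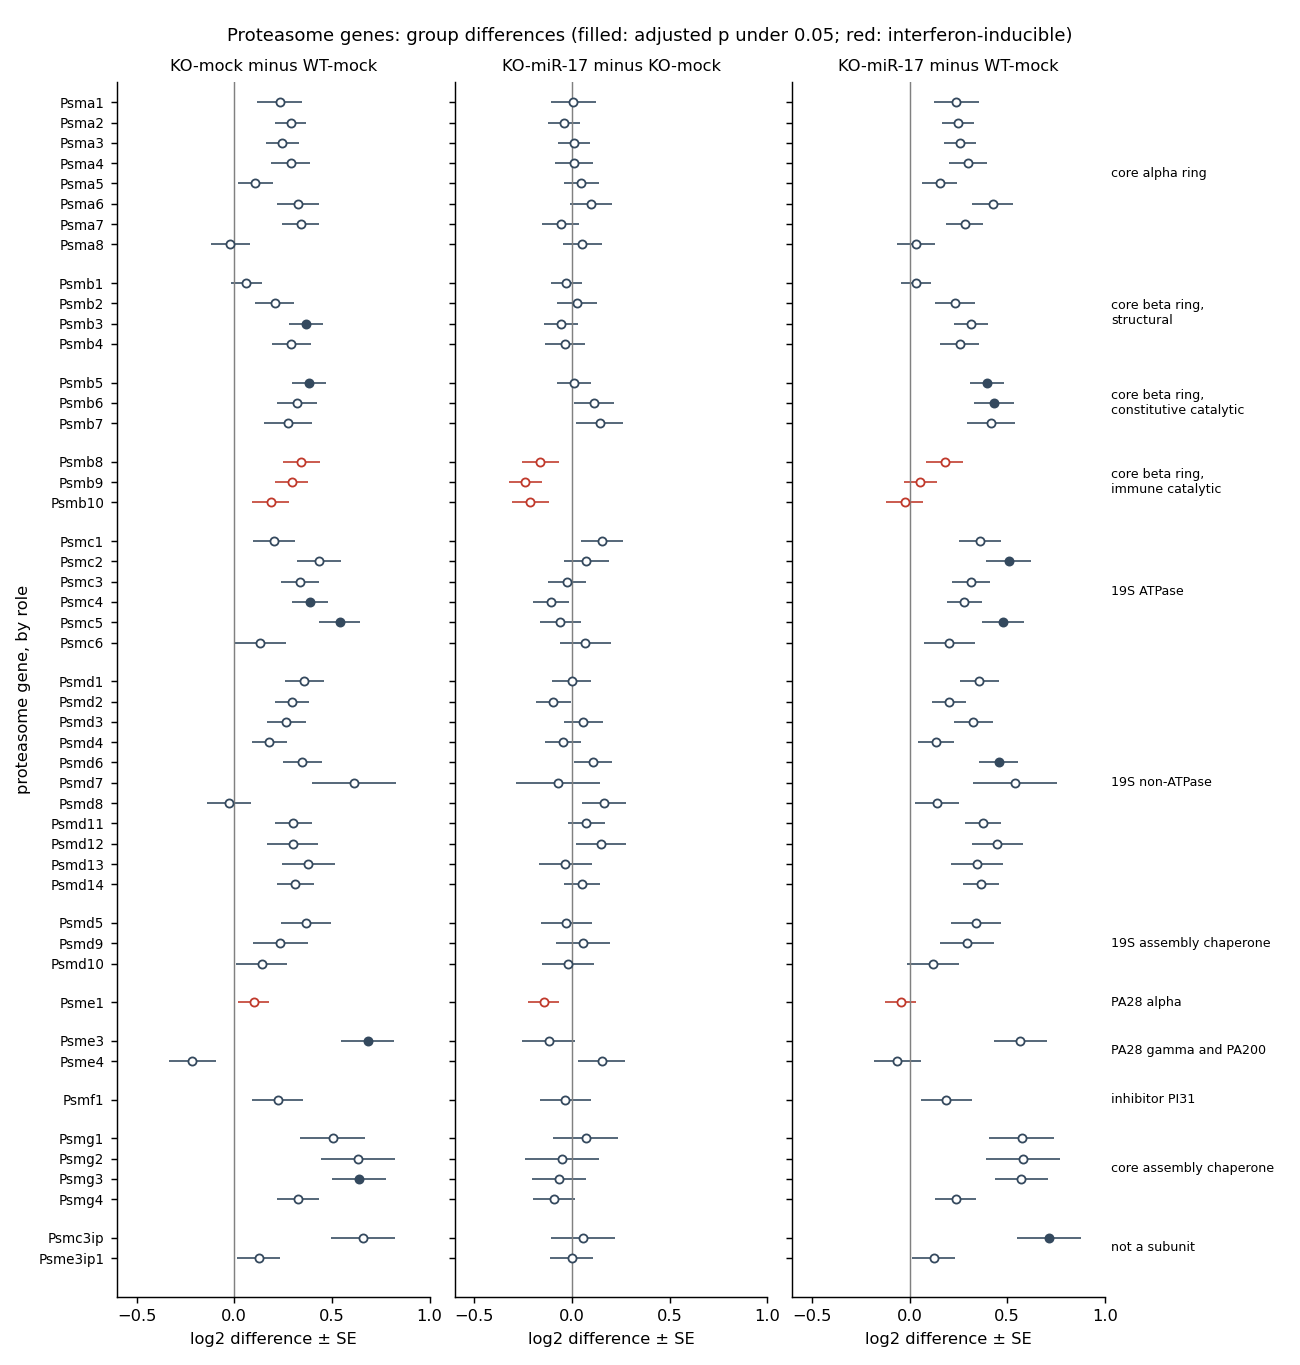
Log2 difference ± SE for each of the 48 genes, grouped by role (19S, the regulatory particle), in the 3 comparisons (points, fitted difference; bars, SE; filled points, adjusted p under 0.05; red, interferon-inducible genes; 2 arrays a group). In the left and right panels most points lie right of 0, and in the middle panel the 4 red points lie left of all others.

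Among core genes, the alpha ring had no called member of 8 and a median difference of 0.27 in KO-mock against WT-mock. Psma8, at the dim end, gave -0.020. In the beta ring, Psmb3, a structural subunit, rose by 0.37 ± 0.086 (SE), or 1.29-fold (adjusted p = 0.048). It read 9.85 and 9.80 in WT-mock, 10.12 and 10.27 in KO-mock, and 10.16 and 10.12 in KO-miR-17. Both WT-mock arrays were below the other 4. Psmb1, another structural subunit, differed by 0.062, the smallest distance from 0 in the beta ring.

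Psmb5 carries the chymotrypsin-like activity of the constitutive core, the site that drugs such as bortezomib block. It read 9.79 and 9.75 in WT-mock, 10.08 and 10.23 in KO-mock, and 10.15 and 10.19 in KO-miR-17. The WT-mock arrays were the lowest, and the groups of deficient cells overlapped each other. The rise was 0.38 ± 0.087 (SE), or 1.31-fold (adjusted p = 0.0426), in KO-mock. It was 0.40 ± 0.087, or 1.32-fold (adjusted p = 0.039), in KO-miR-17. Psmb6, the caspase-like subunit, read 9.28 and 9.39 in WT-mock, 9.56 and 9.75 in KO-mock, and 9.70 and 9.83 in KO-miR-17. Its difference from WT-mock was 0.32 ± 0.10 in KO-mock (adjusted p = 0.116) and a called 0.43 ± 0.10, or 1.35-fold, in KO-miR-17 (adjusted p = 0.0486). Psmb7, the trypsin-like subunit, read 9.45 and 9.69 in WT-mock, 9.79 and 9.91 in KO-mock, and 9.87 and 10.11 in KO-miR-17. It had no call, with differences from WT-mock of 0.28 ± 0.12 and 0.42 ± 0.12. All 3 constitutive catalytic genes thus read higher on each deficient array than on either wild-type array. Most members lay above WT-mock without overlap in each comparison. They were 44 of 48 in KO-mock and 38 of 48 in KO-miR-17, against 25.1% and 25.9% of all genes.

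In the ATPase ring of the regulatory particle, whose 6 subunits unfold the substrate, 2 of 6 were called higher in KO-mock and the median difference was 0.36. Psmc5 read 8.86 on both WT-mock arrays, 9.31 and 9.49 in KO-mock, and 9.25 and 9.43 in KO-miR-17. It rose by 0.54 ± 0.11 (SE), or 1.45-fold, in KO-mock (adjusted p = 0.0293) and by 0.48 ± 0.11, or 1.39-fold, in KO-miR-17 (adjusted p = 0.0405). Psmb5 and Psmc5 were the genes called in both comparisons with WT-mock, which share the wild-type arrays. Psmc4 read 8.73 and 8.67 in WT-mock, 9.07 and 9.10 in KO-mock, and 8.94 and 9.02 in KO-miR-17. It rose by 0.39 ± 0.092 in KO-mock (adjusted p = 0.0493) and had no call in KO-miR-17 (0.28 ± 0.092). Psmc2 read 9.50 and 9.64 in WT-mock, 9.87 and 10.13 in KO-mock, and 10.00 and 10.15 in KO-miR-17. It was called in KO-miR-17 (0.51 ± 0.11, adjusted p = 0.0425) but not in KO-mock (0.43 ± 0.11, adjusted p = 0.0672). The other 3 ATPase genes had differences of 0.13 to 0.34 in KO-mock.

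The 11 measured non-ATPase subunits had a median difference of 0.30 and no call in KO-mock. Psmd6 read 9.67 and 9.63 in WT-mock, 9.92 and 10.08 in KO-mock, and 10.02 and 10.19 in KO-miR-17, where it rose by 0.46 ± 0.098 (adjusted p = 0.0375). Psmd7, a lid subunit, had the largest difference of this class in KO-mock, 0.61 ± 0.21. Its arrays also spread widely, from 7.63 to 7.96 within WT-mock and from 8.24 to 8.57 within KO-mock, and it had no call (adjusted p = 0.145). Psmd8, another lid subunit, was the exception, with values of 9.91 and 10.16 in WT-mock and 9.93 and 10.08 in KO-mock.

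Among genes with a role in the proteasome, the 3 largest differences in KO-mock were in an activator (Psme3) and in assembly chaperones (Psmg3 and Psmg2). The chaperones that pair up to build the core, Psmg1 to Psmg4, had a median difference of 0.57 in KO-mock, or 1.48-fold. All 4 had unadjusted p under 0.05, against 30 of all 48 members and 21.6% of all genes. Psmg3 read 7.54 and 7.67 in WT-mock, 8.11 and 8.38 in KO-mock, and 8.06 and 8.30 in KO-miR-17. It rose by 0.64 ± 0.14 (SE), or 1.56-fold, in KO-mock (adjusted p = 0.0365) and missed the threshold in KO-miR-17 (0.57 ± 0.14, adjusted p = 0.0502). Psmg2 differed by a similar 0.63 ± 0.19 without a call (adjusted p = 0.0965). Psme3, the nuclear activator PA28 gamma, read 7.47 and 7.57 in WT-mock, 8.06 and 8.35 in KO-mock, and 7.99 and 8.18 in KO-miR-17. Its rise of 0.68 ± 0.14, or 1.61-fold, was the largest of the 48 in KO-mock (adjusted p = 0.0294), and in KO-miR-17 it missed the threshold (0.57 ± 0.14, adjusted p = 0.0501). That rank and call rest on its brightest set. Its other sets gave 0.40 and, at a mean level of 3.48, -0.093 in KO-mock against WT-mock. With the mean of its sets the difference was 0.33, without a call (limma, adjusted p = 0.142). The chaperones of the regulatory particle (Psmd5, Psmd9 and Psmd10) gave 0.14 to 0.37 in KO-mock, and the inhibitor Psmf1 gave 0.22, with no call.

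**Figure D2:**
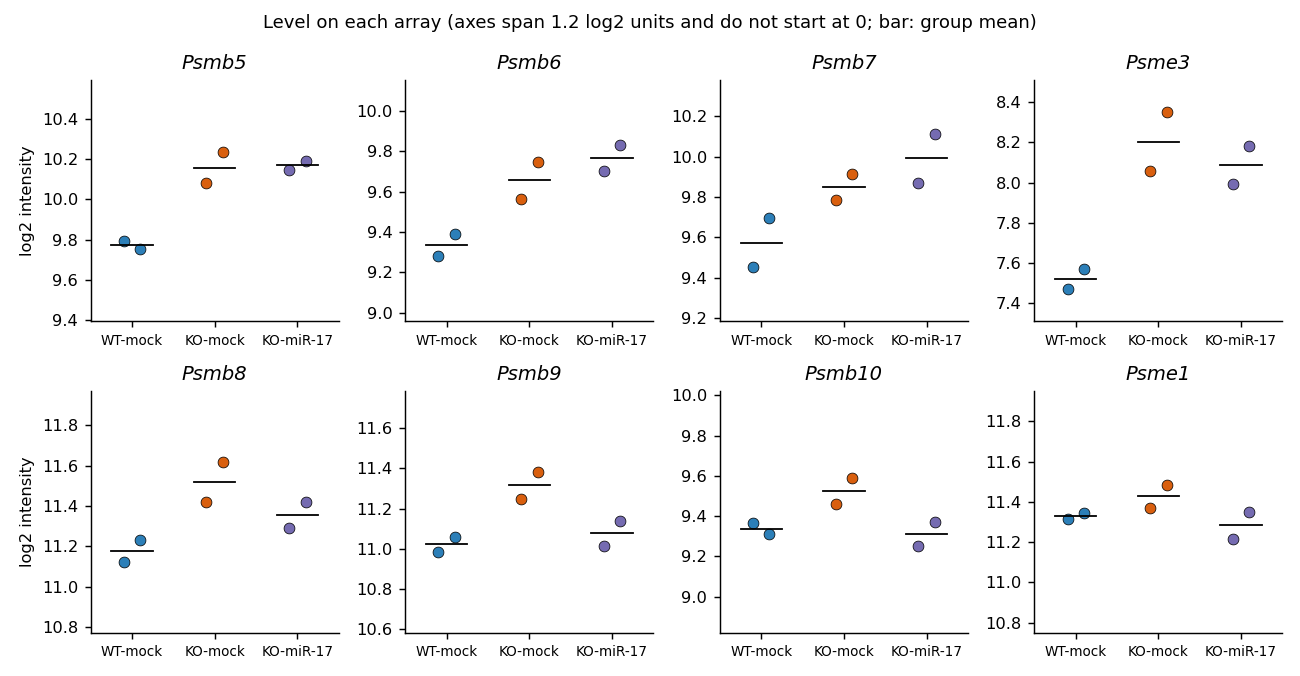
Log2 intensity on each array (points) and group mean (bars) for the constitutive catalytic genes and Psme3 in the upper row and the interferon-inducible genes in the lower row, with axes that do not start at 0. In the upper row both deficient groups lie above WT-mock, while in the lower row the KO-mock mean is the highest of the 3 groups.

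The interferon-inducible genes read higher in KO-mock than in WT-mock, without a call. Psmb8, the immune chymotrypsin-like subunit, read 11.12 and 11.23 in WT-mock, 11.42 and 11.62 in KO-mock, and 11.29 and 11.42 in KO-miR-17. Psmb9, the immune replacement of Psmb6, read 10.98 and 11.06, then 11.25 and 11.38, then 11.02 and 11.14, so that KO-miR-17 overlapped WT-mock and lay below KO-mock. Psmb10, the replacement of Psmb7, read 9.36 and 9.31, then 9.46 and 9.59, then 9.25 and 9.37, the same arrangement. Psme1, or PA28 alpha, read 11.31 and 11.34, then 11.37 and 11.48, then 11.22 and 11.35. Differences of KO-mock from WT-mock were 0.34 ± 0.094 for Psmb8 (adjusted p = 0.0759), 0.29 ± 0.084 for Psmb9 (adjusted p = 0.0849), 0.19 ± 0.095 for Psmb10 and 0.099 ± 0.080 for Psme1. The median of the 4 was 0.24, against 0.30 for the other 44. For all 4 genes the arrays of KO-mock lay above those of WT-mock, as for 40 of the other 44 and 25.1% of all genes.

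Returning miR-17 to deficient cells gave no call among the 48 genes in either direction, and none among all 12393 genes (0% called). At an unadjusted p under 0.05 there was 1 proteasome gene, Psmb9 (3.93% of all genes). Differences of KO-miR-17 from KO-mock were above 0 for 23 genes (51.4% of all genes) and below 0 for 25, with a median of -0.0015 against 0.0041 over all genes. The 4 interferon-inducible genes held the 4 lowest places of the 48. Psmb9 was at -0.24 ± 0.084 (unadjusted p = 0.0225, adjusted p = 0.9995), Psmb10 at -0.21 ± 0.095, Psmb8 at -0.16 ± 0.094 and Psme1 at -0.14 ± 0.080. Next was Psme3 at -0.12, and the other 44 had a median of 0.0091. Of the 48 genes, 4 were higher and 5 lower without overlap, against 15% and 13.9% of all genes, and Psmb9, Psmb10 and Psme1 were among the 5. The 95% interval of the difference was -0.43 to -0.044 for Psmb9 and included 0 for the other 3. At the upper end were Psmd8 (0.17), Psmc1 (0.16), Psme4 (0.15) and Psmd12 (0.15), none called. The KO-mock arrays enter this comparison and the one with WT-mock, with opposite sign.

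**Figure D3:**
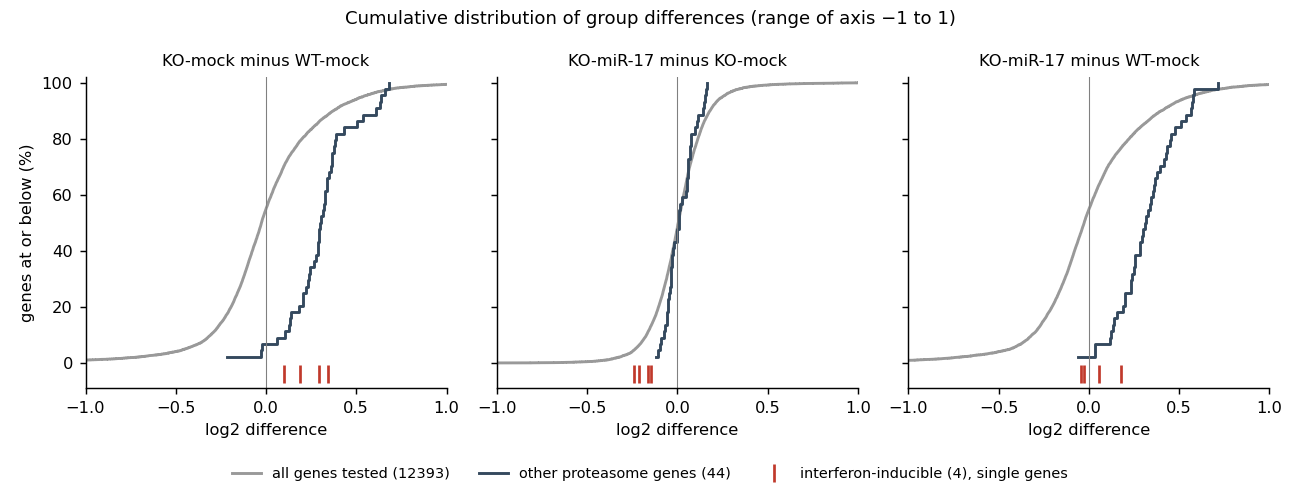
Share of genes at or below each log2 difference (grey, all 12393 genes; dark, the other 44 proteasome genes; red marks, the 4 interferon-inducible genes, 1 mark each). The dark curve lies right of the grey one in both comparisons with WT-mock (medians 0.30 and 0.31), and in the middle panel the red marks lie left of the dark curve.

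Against WT-mock, KO-miR-17 cells had 6 of 48 genes called higher (Psmb5, Psmb6, Psmc2, Psmc3ip, Psmc5 and Psmd6) and none lower. Over all genes 6.8% were called, 4.03% higher and 2.77% lower. Among genes with a mean of at least 8 the counts were 12 of 41 proteasome genes (29.3%) and 24.7% of all such genes, of which 15.8% were called higher, the direction of all 12. Differences were above 0 for 45 of 48 (45.2% of all genes), and for 38 of 41 bright ones (60.9% of bright genes). The groups did not overlap, with KO-miR-17 higher, for 38 (25.9% of all genes), and with KO-miR-17 lower for none (24.4%). At an unadjusted p under 0.05 there were 29 of 48, against 22.8%. Psmc3ip, which aids homologous recombination and is not a subunit, read 6.08 and 6.34 in WT-mock, 6.78 and 6.96 in KO-mock, and 6.77 and 7.08 in KO-miR-17. Its rise of 0.71 ± 0.16, or 1.64-fold, was the largest in this comparison (adjusted p = 0.0439). The interferon-inducible genes had a median difference of 0.015 from WT-mock, against 0.31 for the other 44. Its sign depended on the scaling, at -0.031 after a second quantile normalization and -0.0039 with each array centred on its median. Psmb8 differed by 0.18 ± 0.094, Psmb9 by 0.054 ± 0.084, Psmb10 by -0.025 ± 0.095 and Psme1 by -0.046 ± 0.080, none called.

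The difference between an immune subunit and its constitutive counterpart was then taken within each array, where a shift shared by both genes cancels. Its level depends on the probe sets and has no meaning of its own. Psmb9 minus Psmb6 was 1.71 and 1.67 in WT-mock, 1.68 and 1.63 in KO-mock, and 1.31 and 1.30 in KO-miR-17. Both KO-miR-17 arrays were below the other 4, with mean changes of -0.35 from KO-mock and -0.38 from WT-mock. Psmb8 minus Psmb5 was 1.33 and 1.48 in WT-mock, 1.34 and 1.39 in KO-mock, and 1.14 and 1.23 in KO-miR-17. Psmb10 minus Psmb7 was -0.088 and -0.38 in WT-mock, -0.33 and -0.32 in KO-mock, and -0.62 and -0.74 in KO-miR-17. In each pair KO-miR-17 was the lowest group without overlap, with changes from KO-mock of -0.17, -0.35 and -0.35 for Psmb8, Psmb9 and Psmb10. KO-mock and WT-mock overlapped in each (changes of -0.041, -0.029 and -0.088). With 2 arrays against 2, the exact two-sided permutation p was 0.333 for every non-overlapping pair, the smallest this design allows, so none can pass 0.05. These 3 pairs were examined because the catalytic genes are exchanged for each other. Their values recombine gene levels given above, so they are no further evidence, and other gene pairs were not examined.

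**Figure D4:**
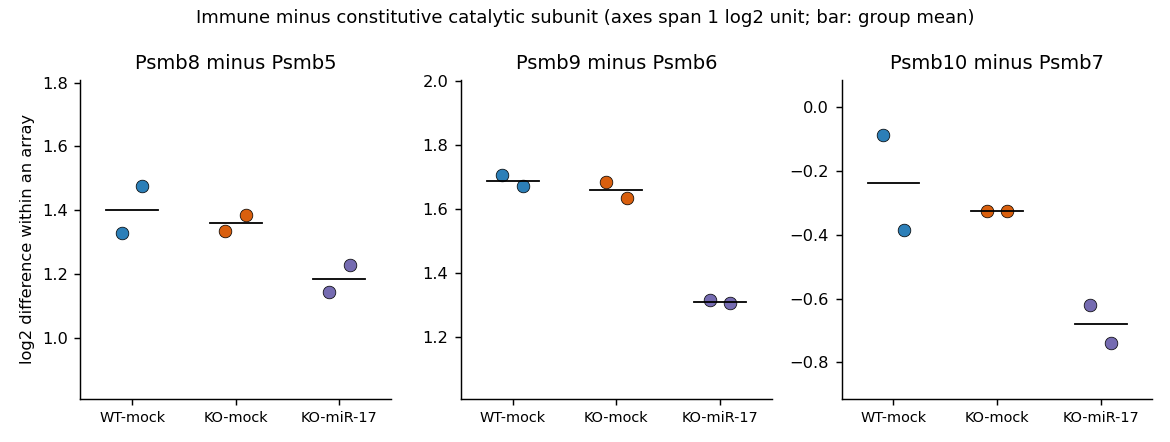
Log2 difference between the immune and the constitutive catalytic gene within each array (points) and group means (bars), for 3 pairs, with axes spanning 1 log2 unit. In each pair both KO-miR-17 points lie below the points of the other groups, for example 1.31 and 1.30 against 1.63 to 1.71 for Psmb9 minus Psmb6.

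Related genes were counted from lists of the surrounding pathway. Of 8 measured assembly and associated factors, Uchl5, a deubiquitinase on the regulatory particle, was called higher in KO-mock (0.62, adjusted p = 0.0302), and the list's median difference was 0.15. Pomp, the chaperone that matures new cores, differed by 0.16 in KO-mock and -0.027 in KO-miR-17 against KO-mock. Of 17 listed ubiquitin genes and shuttles, 10 were measured, none of them a gene for ubiquitin itself. Among these, Ubqln4, which carries ubiquitinated proteins to the proteasome, was called higher in KO-mock (0.62) and in KO-miR-17 (0.50) against WT-mock. The medians of the 10 were 0.20 and 0.23. Of 9 transcription factors and their processing enzymes, Stat3 was called lower in both (-0.70 and -0.84), and none was called higher. Nfe2l1, the factor that restores proteasome genes when proteasomes are inhibited, differed by -0.037 in KO-mock and 0.20 in KO-miR-17 against WT-mock. Nfe2l2, the oxidative stress factor, differed by 0.22 and 0.022.

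Class I antigen processing, the pathway served by the immunoproteasome, had 13 measured genes with no call in KO-mock and a median of -0.019. Tap1, a peptide transporter gene beside Psmb9, differed by -0.12 in KO-mock and -0.17 in KO-miR-17 against WT-mock. In KO-miR-17 against WT-mock, Lap3, a peptidase, was called higher (1.04) and Tapbpl, a peptide editor, lower (-0.52). In KO-miR-17 against KO-mock the list's median was -0.021, with 5 of 13 above 0 and none called. Tap2 (-0.30), Tapbp (-0.25) and Erap1 (-0.22) were the lowest there and Lap3 (0.26) the highest, beside -0.24 for Psmb9. Of 18 interferon gamma signalling and response genes, 1, Irf8, was called lower in KO-mock (-0.51), against 2.79% of all genes. In KO-miR-17 against WT-mock 5 were called lower, Ifng, Ifngr1, Jak1, Irf1 and Gbp7 (-0.56 to -1.41), against 2.77% of all genes. The list's medians against WT-mock were -0.26 and -0.43. Ifng, the cytokine gene itself, gave -0.99 in KO-mock without a call (limma, adjusted p = 0.0585) and a called -1.41 in KO-miR-17. It read 5.90 and 5.29 in WT-mock, 4.87 and 4.34 in KO-mock, and 4.31 and 4.05 in KO-miR-17. The last values lay near the arrays' lower quartile (3.99 to 4.17), so the size of the fall is uncertain. The list holds signalling genes beside response genes, and 5 of the 18 were above 0 in KO-mock (45% of all genes). Socs1 (0.46), Iigp1 (0.34) and Irgm1 (0.29) were the highest. In KO-miR-17 against KO-mock the list's median was -0.21, with 5 of 18 above 0 (51.4% of all genes) and none called. The immune proteasome genes, which interferon gamma induces, read higher in KO-mock than in WT-mock and lower in KO-miR-17 than in KO-mock. None was called in either comparison, and Psmb8 overlapped between KO-miR-17 and KO-mock. In KO-mock against WT-mock, 41 of the other 44 proteasome genes were also above 0, with a median of 0.30 against 0.24. Of 20 type I interferon response genes, 8 were called higher in KO-mock (3.74% of all genes), with a median of 1.09 and 20 of 20 above 0 (45% of all genes). In KO-miR-17 against WT-mock 4 were called higher (4.03% of all genes), with a median of 0.76. Of those called in both, Rtp4, which helps receptors reach the cell surface, gave 3.30 in KO-mock and 2.54 in KO-miR-17, Ifi27l2a 1.32 and 1.29, Ifit2 1.04 and 0.88, and Ifih1, a sensor of viral RNA, 1.57 and 1.67. Ifit1 (2.24), Irf7 (1.36), Oas3 (1.23) and Ifit3 (0.89) were called in KO-mock and not in KO-miR-17. In KO-miR-17 against KO-mock, 2 of the 20 were above 0, with a median of -0.35 and none called. The part of either response in the proteasome values was not tested.

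Leaving out 1 array, which leaves 1 group with a lone array assumed to vary like the others, removed calls among the proteasome genes and among all genes. In KO-mock against WT-mock, no proteasome gene was called without WT-mock 1, WT-mock 2 or KO-mock 2. Without KO-mock 1 there was 1 (Psme3), and without either KO-miR-17 array there were 3 (Psmc5, Psme3 and Psmg3). The share called over all genes was then 0.767% to 5.59%. In KO-miR-17 against WT-mock, none was called without any one array of those groups, and 5 were called without either KO-mock array, while 0.597% to 5.62% of all genes were called. The median over the 48 genes kept its sign, at 0.21 to 0.38 and 0.24 to 0.36. In KO-miR-17 against KO-mock, by contrast, the median ran from -0.079 to 0.090 and 9 to 38 genes lay above 0. The median of the 4 interferon-inducible genes there was below 0 in each case (-0.27 to -0.12).

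Some values of the arrays moved with the groups. Sets for the poly-A control RNAs, which are added to a sample before labelling, were lower in KO-mock than in WT-mock for 24 of 24 (mean difference -0.57), and lower in KO-miR-17 than in WT-mock for 24 of 24 (-0.54). Hybridization controls were lower for 18 of 18 in both (-0.17 and -0.29). In KO-miR-17 against KO-mock the poly-A sets differed by 0.026, with 10 lower and 14 higher. The hybridization sets differed there by -0.12, lower for 18 of 18 (-0.18 to -0.040). Within each group, most proteasome genes were higher on the array numbered 2, 40, 48 and 45 of 48, against 46.6%, 49.4% and 47.9% of all genes, so they also moved together between replicates. The poly-A means were lower on those same arrays, at 7.63 against 7.93 in WT-mock, 7.02 against 7.40 in KO-mock, and 7.02 against 7.46 in KO-miR-17. The summed log2 level of the 8 CD4 T cell genes was 85.9 to 86.4 in WT-mock, 83.9 to 84.7 in KO-mock and 83.4 to 84.2 in KO-miR-17, and Thy1 was called lower in both (-0.73 and -0.83). The sum over the 23 markers of other cell types ran from 99.97 to 102.3, 97.2 to 100.8 and 96.8 to 99.97. The part of these in the proteasome result was not tested. In bulk RNA, a different mix of cells and a different amount of RNA per cell cannot be told apart.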

How the data were processed

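Biotin-labelled total RNA from 6 samples cultured in 10% serum at 7% CO2 was read on one-colour arrays. The deposited values are log2 intensities of 22690 probe sets, for which the submitters' processing notes name RMA; its version is not given in the sources used here, and the log base was taken from RMA's convention and the values' range. RMA makes the arrays' distributions alike, so a change shared by most transcripts cannot be seen. Probe sets naming 1 symbol (20380) were kept, and the set with the highest mean stood for a gene. Of the 48 genes, 21 had several sets and 18 rest on sets that can match several transcripts.

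One limma 3.58.1 model in R 4.3.3 took in all 6 arrays (eBayes with trend; 3 residual and 4.69 prior degrees of freedom). P-values were adjusted by Benjamini-Hochberg over 12393 genes, and genes were called under 0.05. On simulated data of 12393 genes for KO-mock minus WT-mock, the fit recovered 16% of changes of 0.5 log2 units, 74% of 1 and 94.4% of 2, with 4.36% of calls false. The 2 arrays per group limit the precision; arrays of a group correlated at 0.994 to 0.995. Within-array pair differences were compared by exact permutation. Promoters and the microRNA were matched by symbol and name to RefSeq tables.

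The members and lists were chosen with earlier results of these data known. Named with values on every array were the interferon-inducible genes, Psmb5, Psmb6 and Psmb7, every member called in any comparison and the 3 smallest p-values per comparison; others, such as Psme4, Psmd7, Psmd8 and Psmg2, were named after their values were seen. Of related lists, called genes (at most 6 of smallest p per list and comparison) and Nfe2l1, Nfe2l2, Pomp, Tap1, Irf1 and Ifng were named. Tap2, Tapbp, Erap1, Socs1, Iigp1, Irgm1, Irf7 and Oas3 were named after their values were seen. Alternatives changed the filter, probe set choice, normalization, centring, empirical Bayes trend, groups fitted, replicate block and arrays left out. Figures were drawn with matplotlib 3.10.9.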

Additional observations from a re-analysis of the deposited data

How the results depend on the processing

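Over the named genes and the alternatives run, 535 values kept their direction and side of the threshold, 84 lost a call, 33 gained one and 17, none of them called, changed sign. The count of proteasome genes called in KO-mock against WT-mock (6) was less stable. It was 2 with the mean of a gene's probe sets (4.79% of all genes called), 15 with each array centred on its median (9.26%), 1 without the trend (4.41%), 3 with the 2 compared groups alone (5.62%) and 10 with genes under a mean of 8 left out (22.9%), the last chosen after seeing the data. All were higher. Leaving out 1 array gave 0 to 3. In KO-miR-17 against WT-mock (6) it was 11 when centred (8.50%), 0 without the trend (4.1%; 26 members at an unadjusted p under 0.05) and 12 with genes under 8 left out (24.7%), and leaving out 1 array gave 0 to 5. Leaving out 1 array moved the median difference to between 0.214 and 0.383 in KO-mock against WT-mock and to between -0.0789 and 0.0901 in KO-miR-17 against KO-mock. Fitting with a replicate block raised the counts against WT-mock to 33 and 32, while 22.0% and 24.1% of all genes were then called. The labels give shared numbers and no pairing; the differences between the arrays numbered 1 and 2 correlated across genes between groups at 0.429 to 0.634. Under a second quantile normalization, Psmb9 minus Psmb6 in KO-miR-17 against WT-mock moved from -0.379 to -0.351. The sign changes were as follows. In KO-miR-17 against KO-mock, Psme3 was at 0.092 with the mean of its probe sets and Psmb5 at -0.022 when centred. Leaving out 1 array there moved Psme3 between -0.265 and 0.0299, Psmb5 between -0.0632 and 0.0873, Psmc2 between -0.0571 and 0.204, and Psmc3ip between -0.0975 and 0.210. It moved Psmb3 between -0.128 and 0.0201, Psmc5 between -0.150 and 0.0318, and Psmg3 between -0.203 and 0.0695. In KO-miR-17 against WT-mock it moved Psmb10 between -0.0843 and 0.0347, Psme1 between -0.113 and 0.0216, and Psmb9 between -0.0061 and 0.115. The cause of these changes was not tested. In the simulation over genes of all levels, changes of 0.5 log2 units were mostly not called, a share that need not hold for these bright genes.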

Other observations

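Of the 48 proteasome genes, 21 had 37 further probe sets, which the values above did not use. In KO-mock against WT-mock these gave differences of -0.35 to 0.66 with a median of 0.14, 26 of 37 above 0 and 9 opposite in sign to the set that stood for the gene. In KO-miR-17 against KO-mock 18 of 37 were above 0, and in KO-miR-17 against WT-mock 26 of 37, with a median of 0.091. For several genes the sets were close to each other in KO-mock against WT-mock. Both sets of Psmg2, a core assembly chaperone, gave 0.63 and 0.66, and both sets of Psmc2, an ATPase, gave 0.43 and 0.44. All 3 sets of Psme4, the PA200 activator, were below 0, at -0.21, -0.20 and -0.19. Psmd11, a lid subunit with 6 sets, was not uniform, and its 4 sets with mean levels above 8 gave 0.30, 0.40, 0.061 and -0.21. Psmf1, the inhibitor PI31, had 2 dimmer sets at -0.39 and -0.35 in KO-miR-17 against KO-mock, while the set that stood for it gave -0.034.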
